A study of Mus musculus with 3 samples.

Results

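The CXC chemokine genes *Cxcl13*, *Cxcl9*, *Cxcl10*, *Cxcl16* and *Cxcl2*, and *Xcl1* of the C family, were followed through the immune cells of a mouse glioblastoma (GBM) microenvironment. These 6 genes, of 31053 listed features and 19620 with at least 1 UMI (unique molecular identifier, a counted transcript molecule) in the cells kept, were chosen by their UMI counts and shares of positive cells per cell class and library. Their levels are therefore given as a description, and no test was run on them. Female wild-type C57BL/6 mice, 6 to 8 weeks old, carried BT0309 brain tumor-initiating cells (BTICs) in the right striatum. BT0309 is a single line, derived from C57BL/6J mice heterozygous for *Nf1* and *Trp53* and expressing luciferase-GFP. From day 7, mice received niacin at 100 mg/kg intraperitoneally each day, or saline as vehicle, and brains were taken at 4 weeks. A 2 mm section around the injection site was dissociated, leukocytes were enriched on Percoll, and live cells were sorted for 10x single-cell RNA sequencing. There were 3 libraries: 1 from vehicle (vehicle replicate 2) and 2 from niacin (niacin replicates 1 and 2), each made from pooled mice, so vehicle had no second library and no difference between the treatments was tested. The sources differ on pool size, giving 5 mice or 4 tissues.

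The libraries held 2145 to 2532 cell barcodes and 8301228 to 10359526 UMIs. Of 5571 distinct barcodes, 924 occurred in 2 or in all 3 libraries, and the deepest copy of such a barcode carried a median of 15.71 times the UMIs of the next. The deepest copy was kept where it had at least 2 times the UMIs of every other copy, which left 4270 cells (1264 vehicle, 1412 niacin replicate 1 and 1594 niacin replicate 2). The vehicle library was the shallowest, with a median of 3276 UMIs per kept cell against 5133 and 5230.5, and its makeup differed: 299 of its cells were macrophage-like against 69 and 74, and 434 were microglia-like against 851 and 1003. Cells were assigned to a class by lineage markers and are called "-like" for that reason. Microglia-like cells carried a median of 9 of 10 microglia markers, and *P2ry12* was detected in 89.4% of them. Macrophage-like cells, a class that includes monocytes, carried a median of 6 of 12 markers. *Lyz2* was detected in 86.0% of macrophage-like, *S100a9* in 89.3% of neutrophil-like, *Cd3e* in 81.4% of T cell-like and *Ncr1* in 47.4% of natural killer (NK)-like cells. No cell carried 3 or more BTIC, astrocyte or neuron markers, and a count of 0 among 4270 cells allows a share of up to 0.0703%.

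Chemokines are small secreted proteins that steer leukocytes through G protein-coupled receptors, and the CXC and C families are named for the spacing of their cysteines. *Cxcl13* draws B cells and follicular helper T cells through *Cxcr5*. *Cxcl9* and *Cxcl10* are induced by interferons and attract activated T and NK cells through *Cxcr3*. *Cxcl16* is made as a membrane-bound protein that can be shed, and its receptor is *Cxcr6*. *Cxcl2* recruits neutrophils through *Cxcr2*, and *Xcl1*, made by NK cells and activated CD8 T cells, attracts cross-presenting dendritic cells through *Xcr1*.

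*Cxcl9* and *Cxcl10* are neighbours on chromosome 5 and are both known as interferon-induced, so the 250 bases upstream of each start site are shown here (RefSeq sequence, GRCm38.p6, minus strand, 5′ to 3′). The region of *Cxcl9* is chr5:92328080-92328329 and that of *Cxcl10* is chr5:92348890-92349139. Capitals mark matches, on either strand, to the interferon-stimulated response element (ISRE) core GAAANNGAAA or to the kappa-B motif. The gamma-activated site (GAS) TTCNNNGAA was searched too, and no match to any of the 3 motifs overlapped another in these regions.
Cxcl9: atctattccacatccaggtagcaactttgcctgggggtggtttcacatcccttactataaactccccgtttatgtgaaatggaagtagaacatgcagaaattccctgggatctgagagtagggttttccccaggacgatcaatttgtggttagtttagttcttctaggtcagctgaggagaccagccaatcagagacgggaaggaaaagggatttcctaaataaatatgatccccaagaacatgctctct
Cxcl10: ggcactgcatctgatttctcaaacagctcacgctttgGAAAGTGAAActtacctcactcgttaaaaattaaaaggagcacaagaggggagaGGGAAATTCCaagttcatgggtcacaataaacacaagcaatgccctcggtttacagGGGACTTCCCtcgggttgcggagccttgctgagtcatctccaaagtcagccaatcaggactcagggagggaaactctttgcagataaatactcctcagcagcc
The *Cxcl10* region held 1 ISRE core match, 204 bases before the start, and 2 kappa-B matches, 150 and 94 bases before it. The *Cxcl9* region held no match to these 3 patterns, which says only that those letters are not in this window. Among 32851 mouse promoter windows of the same length, 2.98% held the ISRE core, 3.9% a kappa-B match, 7.02% a GAS match, and 0.122% both an ISRE core and a kappa-B match. Of the other members with an entry, *Cxcl2* held 2 overlapping kappa-B matches 88 and 87 bases before its start, and *Cxcl13* and *Xcl1* held none of the 3. The upstream region of *Cxcl16* was not analysed here.

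*Cxcl13* (ENSMUSG00000023078; chr5:95956951-95961068 on the plus strand, GRCm38, gene span) was found in 19 of 4270 cells (0.445%), which held 974 UMIs, and a single cell of niacin replicate 2 held 608 of them (62.4%). By class, 99.8% of its UMIs lay in microglia-like cells, 92.9% in those called activated, meaning that they carried at least 2 activation markers such as *Axl*, *Lpl*, *Cst7* and *Ch25h*. Levels are given as UMIs of the gene per 1000000 UMIs (CPM) of that class in that library, with an exact Poisson 95% interval that covers counting error only.

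In activated microglia-like cells, the *Cxcl13* level was 219 CPM (187–255) in vehicle, from 165 UMIs in 2 of 81 cells. In niacin replicate 1 it was found in 0 of 34 cells, which allows up to 11.5 CPM and a share of cells with a UMI of up to 8.82%. In niacin replicate 2 it was 1832 CPM (1703–1969), from 740 UMIs in 7 of 50 cells. The libraries thus spanned a wide range, with both niacin libraries at its ends and vehicle between them. Without the highest cell the level was 44.1 CPM in vehicle and 337 CPM in niacin replicate 2. Microglia-like cells that were neither activated nor cycling had 0.666, 0.26 and 6.50 CPM in vehicle, niacin replicate 1 and niacin replicate 2, from 1, 1 and 27 UMIs. Activated cells were also deeper, at a median of 8073 UMIs against 3999 for the other microglia-like cells. After thinning every cell to 2000 UMIs and leaving out shallower cells, *Cxcl13* was detected in 2 of 77 activated cells (2.60%, exact binomial 95% interval 0.316–9.07%) of vehicle, 0 of 32 of niacin replicate 1 and 6 of 49 (12.2%, 4.63–24.8%) of niacin replicate 2, with 4, 2 and 1 cells left out. Cycling microglia-like cells were few, and *Cxcl13* gave 13 UMIs in 2 of 11 cells, 0 UMIs in 2 cells and 25 UMIs in 1 of 4 cells in the same order of libraries.

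No *Cxcl13* UMI was found in macrophage-like cells, 0 of 299, 69 and 74 cells, which allows up to 1.34, 5.63 and 4.47 CPM. T cell-like cells, taken here as the background for the 5 CXC members, held 2 UMIs in niacin replicate 2 and none elsewhere. The 17 microglia-like cells with *Cxcl13* comprised 9 activated, 3 cycling and 5 other cells. All 17 had *P2ry12*, 14 had *Tmem119*, and they carried 6 to 10 of the 10 microglia markers and at most 4 of the 12 macrophage markers. *Ccr2*, which marks recruited monocytes, was found in 1 of them and *Ly6c2* in none. That 1 cell was the one with 608 *Cxcl13* UMIs, and it had 5 UMIs of *Ccr2*, 8 microglia and 4 macrophage markers, 2 UMIs of *P2ry12*, 6 of *Tmem119* and none of *Axl* or *Apoe*. Most of the *Cxcl13* UMIs thus came from a cell with markers of both lineages. *Axl* was detected in 12, *Cxcl16* in 14 and *Apoe* in 16 of the 17. These genes were found in 64.24%, 56.36% and 74.55% of all activated cells, and in 3.37%, 17.5% and 39.55% of microglia-like cells in neither state. *Axl* and the microglia markers helped to define the states and classes. Cells with *Cxcl13* were also deeper than those without, at medians of 18072 against 4274 UMIs in vehicle and 6960 against 4252.5 in niacin replicate 2. Clustering on 2000 variable genes, the members left out, placed 14 of the 17 in a cluster of 216 cells (142, 29 and 45 in vehicle, niacin replicate 1 and niacin replicate 2). This cluster had too few raised markers of any class to be named. By the marker classes used here, most of its cells were microglia-like: 85 activated, 16 cycling and 89 other.

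The *Cxcl13* values depended on few cells and on how barcodes shared between libraries were treated. Of the 17 cells, 8 were deep copies of shared barcodes, and these held 870 of the 972 UMIs in microglia-like cells. With every copy of a shared barcode left out, 1, 1 and 102 UMIs remained in vehicle, niacin replicate 1 and niacin replicate 2, whereas keeping every copy gave 234, 36 and 801. Leaving out cells that also passed for a second lineage reduced the UMIs in activated cells from 905 to 132. The second-ranked cell, in vehicle, held 133 *Cxcl13* UMIs of 27067 in all, together with 137 UMIs of *Cxcl9* and 133 of *Ch25h*. The plot of levels by state shows these values beside those of the other 3 myeloid members.

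**Figure D1:**
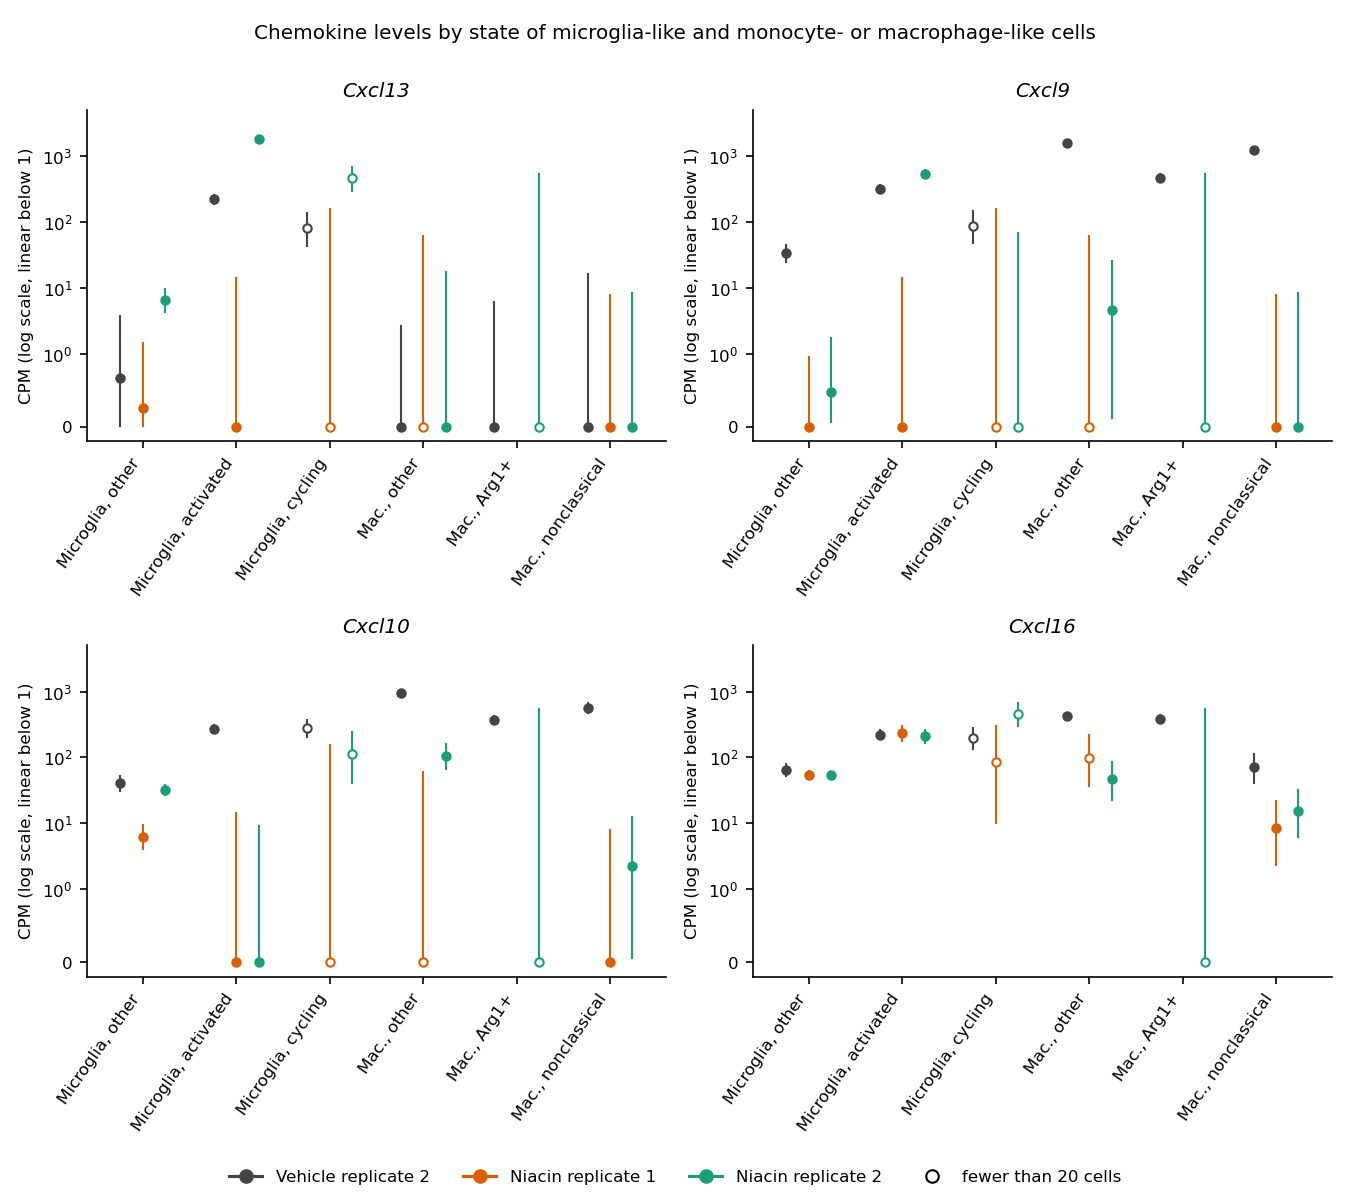
Level of *Cxcl13*, *Cxcl9*, *Cxcl10* and *Cxcl16* (CPM of summed UMIs, log scale that is linear below 1) in each state of the marker-defined microglia-like and macrophage-like cells, with 1 point per library; bars are exact Poisson 95% intervals and open points stand for fewer than 20 cells. *Cxcl13* reached 1832 CPM in activated microglia-like cells of niacin replicate 2 and was not found in macrophage-like cells, whereas *Cxcl9* and *Cxcl10* were highest in macrophage-like states of vehicle.

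*Cxcl9* (ENSMUSG00000029417; chr5:92321347-92328079, minus strand) gave 3644 UMIs in 196 cells (4.59%), of which 75.2% lay in macrophage-like, 14.3% in microglia-like and 8.70% in dendritic-like cells. The library split was steep, with 3410 UMIs in vehicle, 0 in niacin replicate 1 and 234 in niacin replicate 2. In macrophage-like cells of vehicle the level was 1226 CPM (1180.2–1272), from 113 of 299 cells. In niacin replicate 1 it was found in 0 of 69 cells, which allows up to 5.63 CPM, and in niacin replicate 2 a single UMI in 74 cells gave 1.49 CPM. The vehicle level thus lay above both niacin levels by far more than counting error, but with 1 vehicle library the difference between treatments was not tested. It did not rest on the highest cell, which held 312 UMIs: without it the vehicle level was 1096 CPM. After thinning, 70 of 213 vehicle macrophage-like cells were positive (32.9%, 26.6–39.6%), against 37.8% of 299 unthinned, with 86 shallow cells left out. The background share in vehicle T cell-like cells was 3 of 145 (2.07%, 0.429–5.93%) thinned and 10 of 213 unthinned, at a median of 5001 UMIs per cell against 4167 in the macrophage-like cells.

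The makeup of the macrophage-like class also differed between the libraries. *Arg1*-positive cells numbered 55 in vehicle, 0 in niacin replicate 1 and 1 in niacin replicate 2, and nonclassical monocyte-like cells numbered 27, 62 and 49. In vehicle, *Cxcl9* stood at 1224 CPM (1085–1377) in the nonclassical cells (4 of 27 positive, 884 CPM without the highest), 469 CPM (416–527) in the *Arg1*-positive cells and 1558 CPM in the rest. Within the nonclassical state, the only one with over 20 cells in all 3 libraries, *Cxcl9* was found in 0 of 62 and 0 of 49 cells of niacin replicates 1 and 2. Dendritic-like cells of vehicle had 1717 CPM (1529–1921), from 11 of 23 cells. The vehicle order was thus dendritic-like, macrophage-like, then neutrophil-like (136 CPM, 92.7–191) and microglia-like cells (126 CPM, 112–141), and the intervals of the last pair overlapped. In dendritic-like cells 176 of the 303 UMIs came from 1 cell, and without it the level was 768 CPM, below that of the macrophage-like cells. The classes also overlapped, since 22 of all 33 dendritic-like cells carried 3 or more macrophage markers. In vehicle 7 of 23 dendritic-like and 60 of 299 macrophage-like cells passed for a second lineage. The part of this overlap in the order was not tested. Without their highest cell the neutrophil-like, microglia-like and *Arg1*-positive cells had 51.5, 69.9 and 264 CPM.

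Microglia-like cells of niacin replicate 2 had 47.3 CPM of *Cxcl9*, but 212 of the 218 UMIs came from 1 activated cell, and without it the level was 1.30 CPM. In niacin replicate 1 none of 851 microglia-like cells was positive. In vehicle the activated cells stood at 319 CPM (280.0–362) and the other microglia-like cells at 33.3 CPM (24.7–43.9). In the activated cells 137 of the 240 UMIs came from 1 cell, and in the others 25 of 50. Without the highest cell the levels were 142 and 16.7 CPM. Thinned shares were 7 of 77 (3.73–17.8%) and 7 of 200 (1.42–7.08%), and their intervals overlapped. With every copy of shared barcodes left out, the *Cxcl9* UMIs were 1023, 0 and 214 in vehicle, niacin replicate 1 and niacin replicate 2, and with every copy kept they were 3483, 126 and 391.

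*Cxcl10* (ENSMUSG00000034855; chr5:92346638-92348889, minus strand) gave 2748 UMIs in 271 cells (6.35%) and was spread over more classes. In vehicle, dendritic-like cells stood at 952 CPM (813–1107), macrophage-like cells at 755 CPM (719–792) and neutrophil-like cells at 644 CPM (545–755). The intervals of the last pair overlapped, and that of the dendritic-like cells lay above both. This order rested on single cells, since 63 of the 168 UMIs of the 23 dendritic-like cells came from 1 cell. Without the highest cell of each class the levels were 635, 644 and 344 CPM in the same order. The overlap of dendritic-like and macrophage-like markers given above applies here too. Microglia-like cells at 127 CPM (113–142) and T cell-like cells at 112 CPM (93.3–134) followed, and did not differ beyond their intervals. In niacin replicate 1 no *Cxcl10* UMI was found in 69 macrophage-like cells, and in niacin replicate 2 the level was 35.7 CPM (22.9–53.2), with 22 of the 24 UMIs in 1 cell. Microglia-like cells of niacin replicates 1 and 2 had 5.80 and 30.6 CPM, the second with 105 of 141 UMIs in 1 cell and 7.81 CPM without it. Neutrophil-like cells of niacin replicate 1 had 22.8 CPM, from 1 cell, and those of niacin replicate 2 none. T cell-like cells had 18.0 CPM (9.28–31.4) in niacin replicate 1 and 76.7 CPM (60.2–96.2) in niacin replicate 2, the latter with 50 of 74 UMIs in 1 cell. The levels of these 4 classes were thus lower in both niacin libraries than in vehicle, although the interval of T cell-like cells of niacin replicate 2 overlapped that of vehicle, and the difference was not tested. After thinning, 24.4% of vehicle macrophage-like cells (52 of 213, 18.8–30.8%) and 8.28% of T cell-like cells (12 of 145, 4.35–14.0%) were positive, against 106 of 299 and 31 of 213 unthinned. *Cxcl10* UMIs were therefore found in the T cell-like class that is taken as background. Of its 213 vehicle cells 42 passed for a second lineage, and 59 of all 511 carried 3 or more macrophage markers. Whether T cells themselves made *Cxcl10* was not tested.

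In vehicle, both interferon-induced ligands were found together in part of the macrophage-like cells. Of the 113 cells with *Cxcl9*, 52 (46.0%) also had *Cxcl10*, against 29.0% of the cells without *Cxcl9*. The positive cells were also deeper, with a median of 9269 UMIs against 2864, so co-detection and depth moved together, and the part of depth was not tested. In the 55 *Arg1*-positive cells the order was the opposite, with *Cxcl10* in 3 of the 14 cells with *Cxcl9* (21.4%) and in 36.6% of those without, at medians of 13860 and 10358 UMIs.

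**Figure D2:**
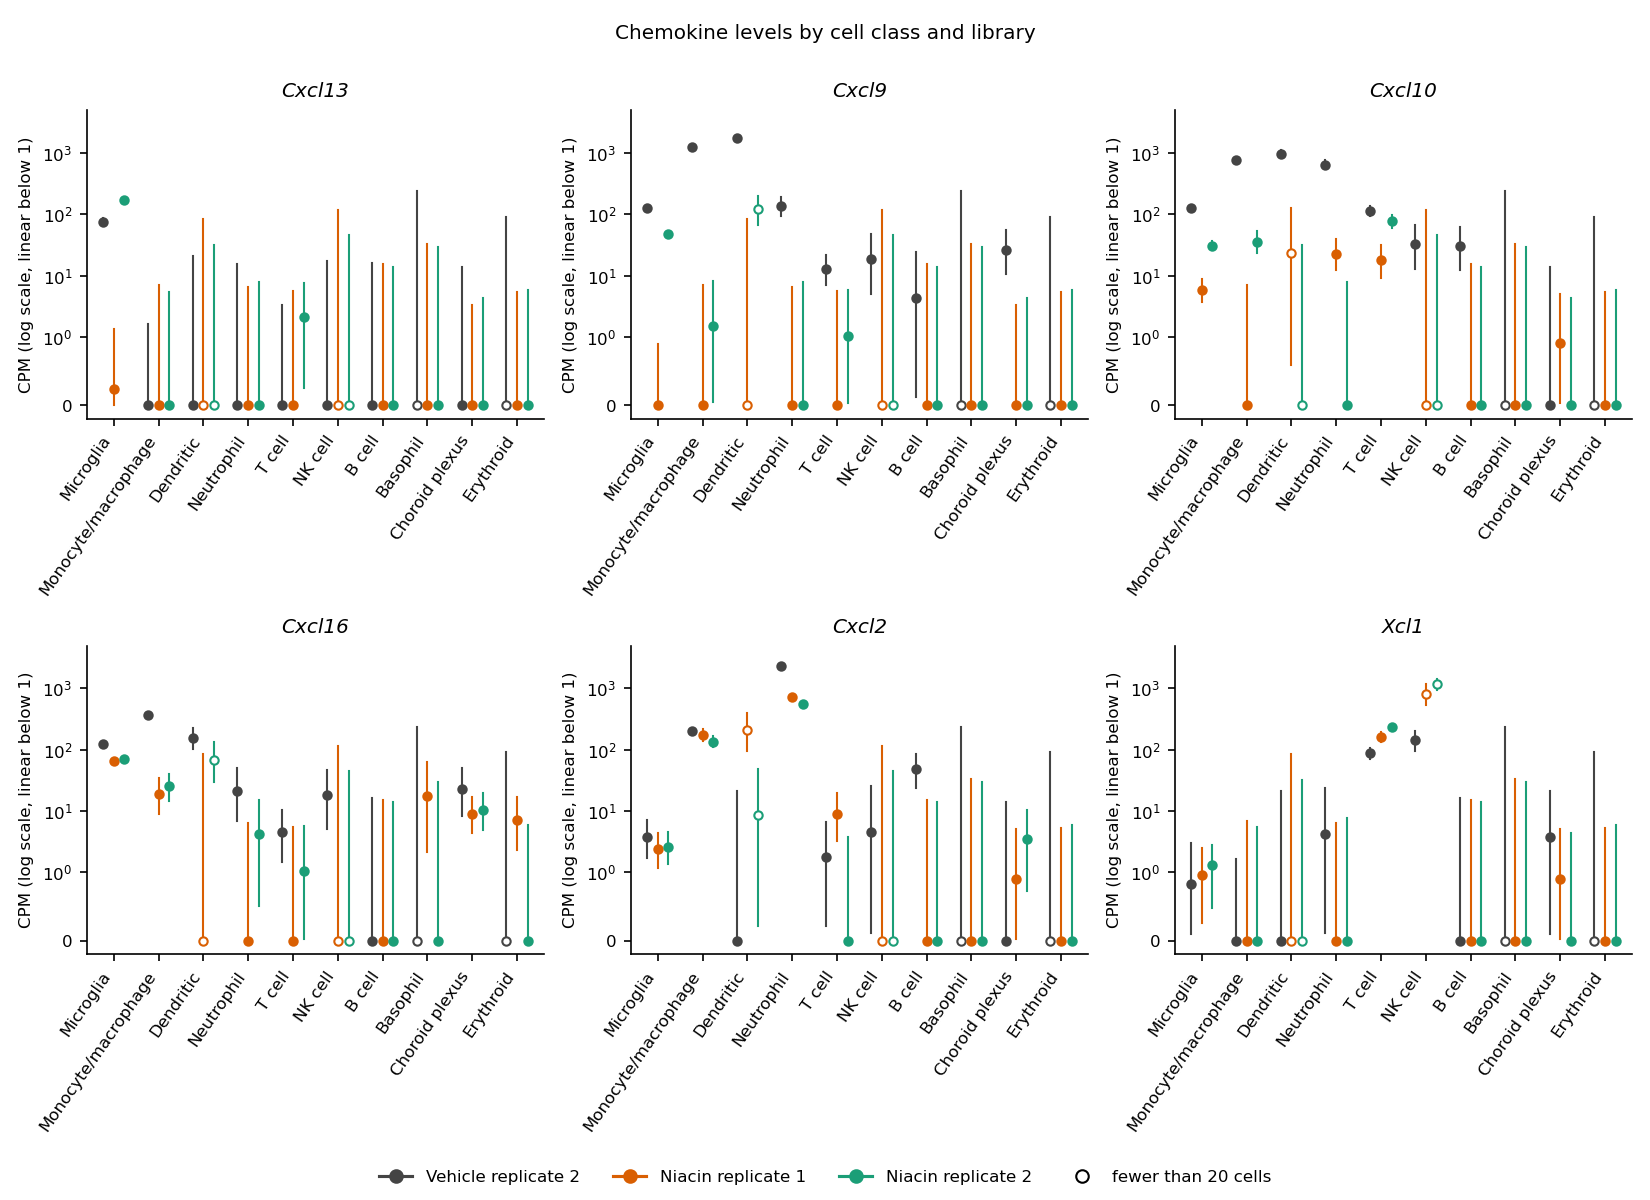
Level of each of the 6 chemokine genes (CPM of summed UMIs, log scale that is linear below 1) in each marker-defined cell class, with 1 point per library; bars are exact Poisson 95% intervals and open points stand for fewer than 20 cells. *Cxcl9* in macrophage-like cells stood at 1226 CPM in vehicle and at most 1.49 CPM in the niacin libraries, *Cxcl2* was highest in neutrophil-like cells, and *Xcl1* lay in T cell-like and NK-like cells.

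*Cxcl16* (ENSMUSG00000018920; chr11:70453983-70459984, minus strand) gave 1888 UMIs in 690 cells (16.2%), with no more than 36 UMIs in any cell. Microglia-like cells stood at 122 CPM (109–137) in vehicle, 65.3 CPM (57.7–73.5) in niacin replicate 1 and 71.7 CPM (64.2–79.9) in niacin replicate 2. Within the activated state the 3 libraries were close, at 221 CPM (188–257), 235 CPM (180–301) and 210 CPM (168–260), respectively, and their intervals overlapped. Microglia-like cells in neither state also had overlapping intervals, at 64.6, 53.7 and 53.2 CPM. The higher vehicle level over all microglia-like cells thus went with its larger share of activated cells, 81 of 434 against 34 of 851 and 50 of 1003. Activated cells had more *Cxcl16* than the others in each of the 3 libraries. After thinning, 32.5%, 25% and 30.6% of activated cells were positive, against 8.50%, 10.1% and 8.82% of the other microglia-like cells, so the order held at equal depth. In niacin replicate 1 the intervals overlapped (8 of 32, 11.5–43.4%, and 63 of 623, 7.86–12.75%), and in vehicle and niacin replicate 2 they did not. Without its highest cell the activated level of niacin replicate 1 was 182 CPM. Unthinned, 49 of 81, 16 of 34 and 28 of 50 activated cells and 58 of 342, 155 of 815 and 156 of 949 others were positive.

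In macrophage-like cells *Cxcl16* stood at 375 CPM (350–401) in vehicle, 18.8 CPM (9.0–34.5) in niacin replicate 1 and 25.3 CPM (14.7–40.5) in niacin replicate 2. The order of the 2 myeloid classes was thus opposite in vehicle and in both niacin libraries, where microglia-like cells held 88.5% and 88.3% of the *Cxcl16* UMIs. In vehicle, *Arg1*-positive macrophage-like cells stood at 389 CPM (341–442) nonclassical ones at 70.2 CPM (40.1–114) and the remaining 217 cells at 418 CPM (385–454). The nonclassical cells of niacin replicates 1 and 2 had 8.47 CPM (2.31–21.7) and 15.6 CPM (6.27–32.2). In the nonclassical cells of vehicle 12 of the 16 UMIs came from 1 cell, and without it the level was 18.9 CPM, within the intervals of both niacin libraries. In T cell-like cells the background was at most 4.52 CPM in any library, with at most 1 positive cell after thinning.

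*Cxcl2* (ENSMUSG00000058427; chr5:90903871-90905938, plus strand) gave 2198 UMIs in 232 cells (5.43%). Neutrophil-like cells stood at 2304 CPM (2114–2506) in vehicle, from 48 of 85 cells, at 733 CPM (664–806) in niacin replicate 1, from 25 of 73, and at 547 CPM (483–618) in niacin replicate 2, from 25 of 57. The vehicle level was the highest, and the niacin replicates did not overlap each other within counting error. These levels came from 544, 418 and 262 UMIs out of class totals of 236143, 570572 and 478829. The class total was thus smallest in vehicle, although it held the most neutrophil-like cells. After thinning, 54.8% (23 of 42, 38.7–70.2%), 29.5% (13 of 44, 16.8–45.2%) and 38.6% (17 of 44, 24.4–54.5%) were positive, with 43, 29 and 13 shallow cells left out, and these intervals overlapped. Of the 215 neutrophil-like cells, 91 also carried 3 or more macrophage markers, and cells passing for a second lineage numbered 9 of 85, 25 of 73 and 24 of 57, fewest in vehicle. Their part in the library difference was not tested. Macrophage-like cells stood at 201 CPM (183–221), 174 CPM (141–214) and 135 CPM (109–166) of *Cxcl2*. In that class the intervals of vehicle and niacin replicate 1 overlapped, as did those of both niacin libraries, whereas vehicle lay above niacin replicate 2. Within the vehicle macrophage-like class, *Arg1*-positive cells stood at 358 CPM (312–409). Microglia-like cells had 2.42 to 3.73 CPM and T cell-like cells 0 to 8.98 CPM, the latter with at most 1 positive cell after thinning. A single unclassified cell of niacin replicate 1 held 268 (12.2%) of all *Cxcl2* UMIs.

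*Xcl1* (ENSMUSG00000026573; chr1:164931644-164935527, minus strand) gave 599 UMIs in 164 cells, 430 of them in T cell-like and 153 in NK-like cells. T cell-like cells stood at 86.9 CPM (70.4–106) in vehicle, 162 CPM (133–195) in niacin replicate 1 and 234 CPM (205–267) in niacin replicate 2. *Xcl1* was thus the only member whose level, in the class with most of its UMIs and over 20 cells in every library, was lower in vehicle than in both niacin libraries. Thinned shares ran the same way, at 12.4% (18 of 145, 7.53–18.9%), 21.7% (18 of 83, 13.4–32.1%) and 25.8% (33 of 128, 18.5–34.3%), but their intervals overlapped. Unthinned, 29 of 213, 37 of 140 and 57 of 158 were positive, and 68, 57 and 30 cells were too shallow to be thinned. In CD8 cells the level was 62.7 CPM (34.3–105) in vehicle, 241 CPM (185–309) in niacin replicate 1 and 297 CPM (240–365) in niacin replicate 2. In CD4 cells it was 59.8, 51.0 and 145 CPM, without that split between vehicle and niacin, and with 32 of the 63 UMIs of niacin replicate 2 in 1 cell. T cell-like cells with markers of neither or both had 148 CPM (110–196), 212 CPM (146–298) and 319 CPM (249–403). Their level was also lowest in vehicle, with an interval that overlapped that of niacin replicate 1. They held 49 of the 96 UMIs in T cell-like cells of vehicle. CD8 cells formed 38 of 213, 53 of 140 and 43 of 158 T cell-like cells in the same order. NK-like cells of vehicle stood at 143 CPM (96.9–202), from 13 of 95 cells. The niacin libraries held too few NK-like cells for a level: 26 UMIs in 5 of 9 cells, 20 of them in 1 cell, and 96 UMIs in 7 of 12 cells. Microglia-like cells, the background for *Xcl1*, had 0.828 to 1.30 CPM (0 of 288, 2 of 657 and 1 of 654 cells after thinning), and no UMI was found in macrophage-like cells. Of the 511 T cell-like cells, 51 carried 3 or more NK markers.

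The members differed in how their UMIs were distributed over positive cells. It took 1 cell to reach 50% of the UMIs for *Cxcl13*, 12 for *Cxcl9*, 16 for *Cxcl10*, 19 for *Cxcl2*, 26 for *Xcl1* and 81 for *Cxcl16*. *Cxcl16* was thus carried by many cells with few UMIs each, and *Cxcl13* by very few cells with many. With every copy of a shared barcode left out, the UMIs in vehicle, niacin replicate 1 and niacin replicate 2 were 1174, 21 and 215 for *Cxcl10*, 462, 147 and 249 for *Cxcl16*, 736, 331 and 180 for *Cxcl2*, and 87, 58 and 222 for *Xcl1*, against 2458, 51 and 239, 1208, 305 and 375, 1021, 807 and 370, and 131, 140 and 328 as kept here. Vehicle was the highest for the CXC genes of this group both ways, and niacin replicate 2 for *Xcl1*.

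**Figure D3:**
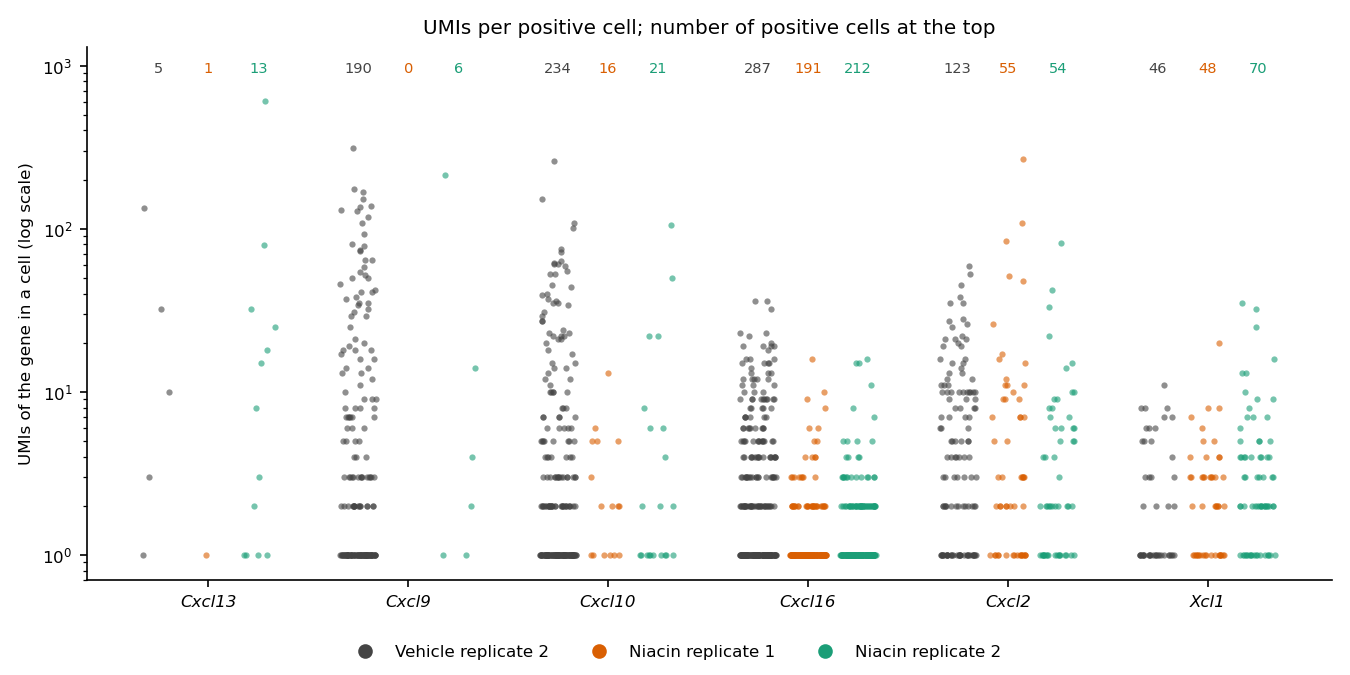
UMIs of each gene in every positive cell (log scale), by library, with the number of positive cells above each column. A single cell with 608 UMIs stands above all other *Cxcl13*-positive cells, whereas no cell exceeded 36 UMIs of *Cxcl16* or 35 of *Xcl1*.

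Of the receptors of the 6 ligands, *Cxcr3* and *Cxcr6* were found mainly in T cell-like cells and *Cxcr2* in neutrophil-like cells. *Cxcr3*, the receptor of *Cxcl9* and *Cxcl10*, stood at 116 CPM in T cell-like cells of vehicle and at 256 and 282 CPM in niacin replicates 1 and 2. *Cxcr6*, the receptor of *Cxcl16*, stood at 228, 632 and 731 CPM in those cells in the same order. Both were lowest in vehicle, the library with the highest *Cxcl9*, *Cxcl10* and *Cxcl16* in macrophage-like cells. In CD8 cells *Cxcr6* stood at 412, 684 and 798 CPM and *Cxcr3* at 125, 350 and 313 CPM. *Cxcr2*, the receptor of *Cxcl2*, was in neutrophil-like cells at 1554, 515 and 472 CPM, found in 62, 50 and 38 cells. Its level was highest in vehicle, as that of *Cxcl2* was, but both are shares of the same class totals. Neutrophil-like cells held a median of 1964 UMIs in vehicle and 3606 and 6640 in niacin replicates 1 and 2. The part of this depth was not tested. *Cxcr5*, the receptor of *Cxcl13*, gave 61 UMIs in all. In B cell-like cells it stood at 30.5, 49.8 and 60.3 CPM, from 7, 12 and 16 UMIs, and in T cell-like cells at 18.1, 2.99 and 0 CPM. *Xcr1*, the receptor of *Xcl1*, gave 39 UMIs in all, and each library had 1 positive dendritic-like cell, with 2, 1 and 14 UMIs, so its level could not be given at this depth. These differences between libraries were not tested. Of the other receptors, *Cxcr1* gave 11 UMIs, all in neutrophil-like cells, *Ackr3* gave 30 and *Ackr1* gave 1. *Cxcr4*, the receptor of *Cxcl12*, stood at 196, 163 and 146 CPM in macrophage-like cells and 14.5, 3.14 and 0.867 CPM in microglia-like cells.

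**Figure D4:**
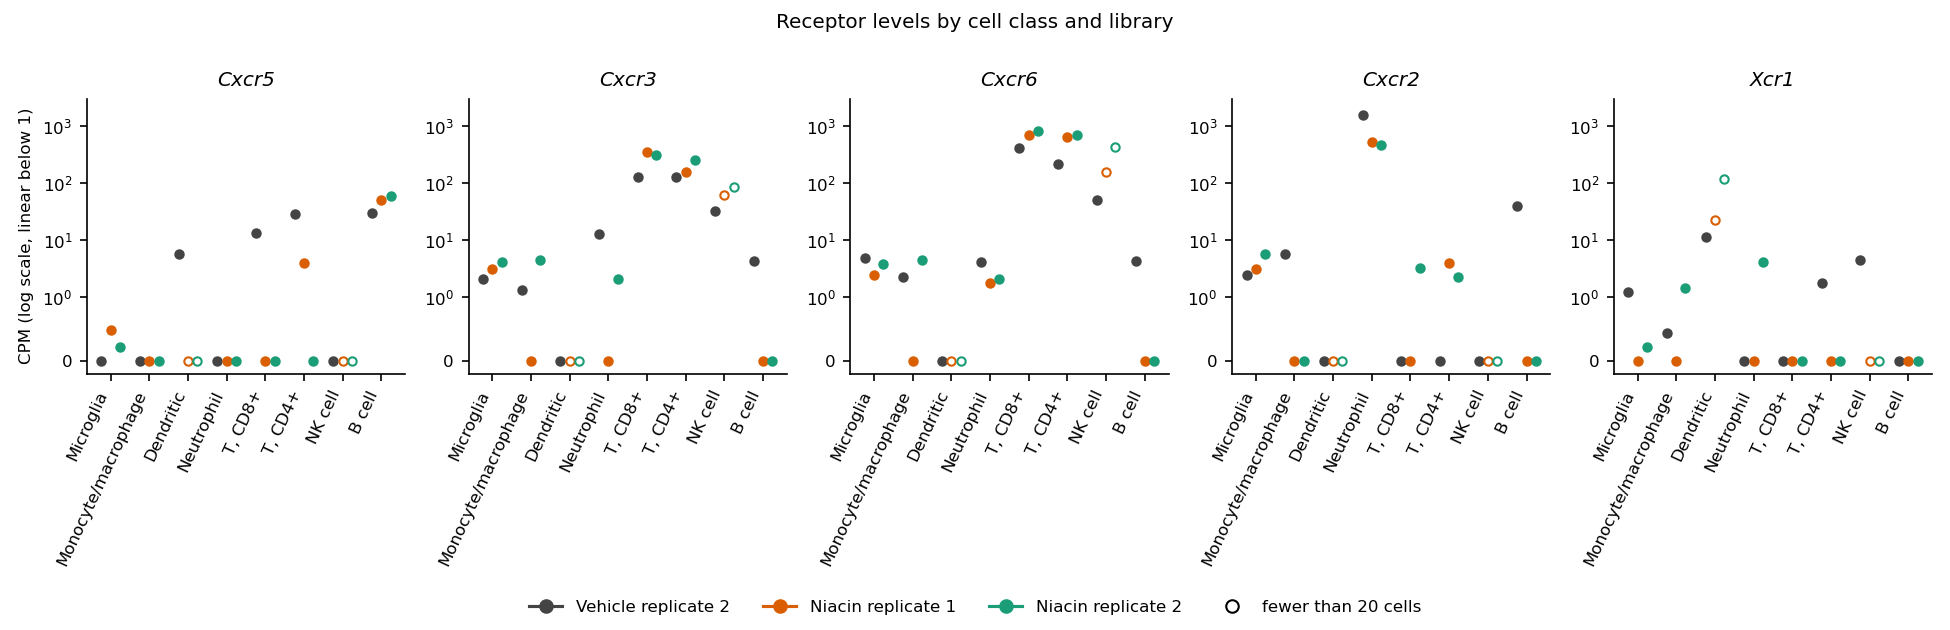
Level of the receptors *Cxcr5*, *Cxcr3*, *Cxcr6*, *Cxcr2* and *Xcr1* (CPM of summed UMIs, log scale that is linear below 1) in marker-defined cell classes, with 1 point per library and open points for fewer than 20 cells. *Cxcr3* and *Cxcr6* lay in T cell-like cells, lowest in vehicle (125 and 412 CPM in the CD8 cells), *Cxcr2* in neutrophil-like cells, highest in vehicle (1554 CPM), and *Cxcr5* and *Xcr1* were near 0 in most classes.

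The other CXC ligands gave few UMIs. Of those listed, *Pf4*, the platelet factor, gave 114 UMIs, *Cxcl14* gave 20, *Cxcl3* gave 10 and *Cxcl12* gave 3. *Cxcl1* and *Cxcl5* gave 1 UMI each, and *Cxcl15*, *Cxcl17* and *Ppbp* gave none.

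Genes that act upstream of the members, or that are induced with them, were compared between macrophage-like and microglia-like cells in a fit that pairs both classes within each library (edgeR quasi-likelihood test on summed UMIs, library as block, 3 libraries, adjusted p-values by Benjamini-Hochberg over all 10258 genes tested). A library pools several mice, and nothing in the sources says that the pools were independent beyond that, so the p-values measure the spread between these 3 libraries. Of 69 genes in 8 lists, 49 were tested, and 21 were higher and 13 lower in macrophage-like cells at an adjusted p under 0.05. Over all genes, 21.1% were called higher and 20.2% lower. The median log2 fold change was 0.68 over the tested list genes and -0.09 over all genes. Without the library block 12 list genes were higher, without niacin replicate 2 there were 12 higher and 6 lower, and without niacin replicate 1 there were 8 lower.

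In the type I interferon response 9 of 10 genes were higher, with a list median of 2.38. *Irf7*, the transcription factor that amplifies this response, was higher by 3.68 ± 0.24 (log2, SE; adjusted p = 0.00017) and *Ifi204*, a DNA sensor, by 2.49 ± 0.20 (adjusted p = 0.00031). *Isg15*, a ubiquitin-like interferon-stimulated protein, was higher by 2.42 ± 0.61 (adjusted p = 0.019) and *Rsad2*, an antiviral enzyme, by 2.88 ± 0.68 (adjusted p = 0.015), the latter in 2 of 3 libraries. Neither of these passed without niacin replicate 2 (adjusted p = 0.11 and 0.085), where 4 of the 10 genes were higher. *Ifit1*, the gene of the list that was not called and is named for that reason, had 2.24 with an adjusted p of 0.064. The levels themselves split by library as those of *Cxcl9* and *Cxcl10* did. *Isg15* in macrophage-like cells stood at 906 CPM in vehicle and at 24.4 and 116 CPM in niacin replicates 1 and 2, and *Rsad2* at 443, 1.88 and 25.3 CPM. Within the nonclassical cells *Isg15* stood at 540 CPM in vehicle and at 25.4 and 49.0 CPM in the niacin libraries. These library differences were not tested.

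In the interferon gamma axis, 4 of 11 tested genes were higher, among them *Jak2*, *Irf1* and *Gbp2* (named after their values were seen), and *Irf8* was lower, with a list median of 0.76. Among all genes 21.1% were called higher and 20.2% lower. *Irf8*, a myeloid lineage factor, had -0.78 ± 0.22 (adjusted p = 0.026) and did not pass with either of the niacin libraries left out (adjusted p = 0.19 in both fits). The receptor chain *Ifngr1* had -0.19 (adjusted p = 0.58) and the kinase *Jak1* had 0.46 (adjusted p = 0.080). *Ifng* itself, the ligand of this axis and named after its values were seen, gave 296 UMIs and stood at 84.1, 91.3 and 66.3 CPM in T cell-like cells. In NK-like cells of vehicle it stood at 175 CPM.

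Of the lymphotoxin and noncanonical NF-kB genes, a pathway known to drive *Cxcl13* in lymphoid stroma, 4 of 6 tested were higher in macrophage-like cells. The list median was 0.94, and the higher genes were *Ltb*, *Tnfrsf1a*, *Map3k14* and *Nfkb2*, the last pair named after their values were seen. Whether this pathway bears on *Cxcl13* in these cells was not tested. *Tnfrsf1a*, a TNF receptor, was higher by 0.94 ± 0.18 (adjusted p = 0.0065) and *Ltb*, a lymphotoxin subunit, by 2.38 ± 0.69 (adjusted p = 0.032), the latter in 2 of 3 libraries. Neither passed without niacin replicate 1 (adjusted p = 0.051 and 0.15) or without niacin replicate 2 (adjusted p = 0.098 and 0.19), where 1 gene of the list was higher in each fit. The lymphotoxin receptor *Ltbr* had 0.50 (adjusted p = 0.064) and the NF-kB subunit *Relb* -0.08 (adjusted p = 0.85).

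Of 8 early NF-kB genes, 2 were higher (*Il1b* and *Ptgs2*) and 3 lower (*Tnf*, *Ccl3* and *Ccl4*), with a median of -0.29. Among all genes 21.1% were called higher and 20.2% lower, so the higher count of this list was near the share over all genes. *Il1b*, *Ptgs2* and *Tnf* are named after their values were seen. The chemokine genes *Ccl3* and *Ccl4* had -1.93 ± 0.27 (adjusted p = 0.0020) and -2.99 ± 0.46 (adjusted p = 0.0028), and the feedback inhibitors *Nfkbia* and *Nfkbiz* had 0.06 (adjusted p = 0.82) and -0.62 (adjusted p = 0.16). Of 10 immediate early genes, 8 were lower in macrophage-like cells, with a median of -1.22. *Egr1* had -5.05 ± 0.29 (adjusted p = 0.00014) and *Jun* -3.05 ± 0.37 (adjusted p = 0.0012). *Junb*, at -1.11, and *Fos*, at -1.28, were also lower, but neither passed with either of the niacin libraries left out. Immediate early genes are also known to be induced when tissue is dissociated, and the part of handling was not tested. Of the sheddases that release *Cxcl16*, *Adam10* had -0.86 ± 0.23 (adjusted p = 0.024) and did not pass without niacin replicate 1 (adjusted p = 0.096) or 2 (adjusted p = 0.22), and *Adam17* had -0.18 (adjusted p = 0.51). *Cxcr4* was higher in macrophage-like cells by 5.46 ± 0.57 (adjusted p = 0.00067), and *Pf4* by 1.46 ± 0.48 (adjusted p = 0.049), the latter from 27 UMIs of which 10 came from 1 cell, and not with niacin replicate 1 or 2 left out (adjusted p = 0.30 and 0.13).

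**Figure D5:**
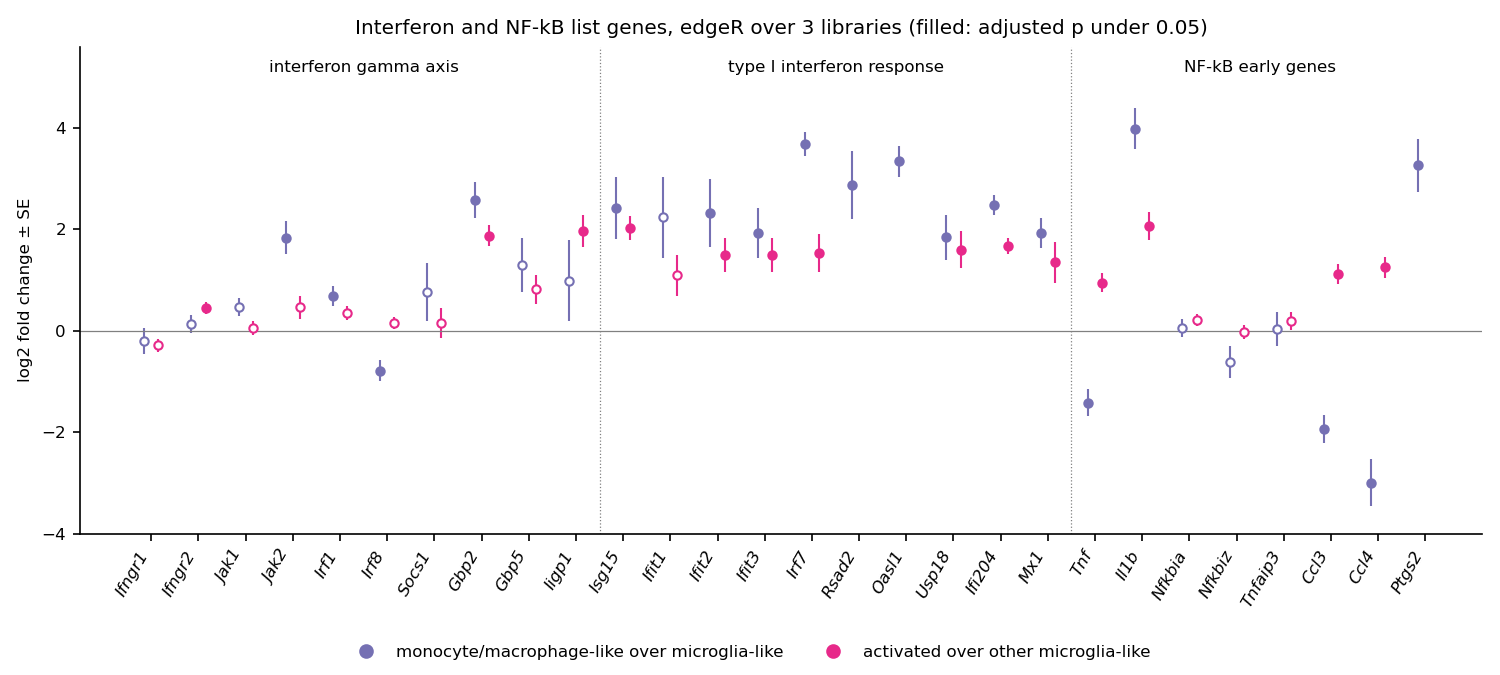
Log2 fold change with its SE of interferon gamma axis, type I interferon and early NF-kB genes, for macrophage-like against microglia-like cells and for activated against other microglia-like cells (edgeR, 3 libraries); filled points have an adjusted p under 0.05. *Irf7* (3.68) and the other type I interferon genes lie above 0 in the first comparison, whereas *Ccl3* and *Ccl4* lie below 0 in it (-1.93 and -2.99) and above 0 in the second (1.12 and 1.25).

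The same lists were compared between activated and other microglia-like cells, the states for which *Cxcl13* and *Cxcl16* are described above (8872 genes tested, 45 of them from the lists). Neither gene was tested between these states, and *Cxcl13* was not found in activated cells of niacin replicate 1. Of the 45, 15 were higher and 4 lower in activated cells, where 6.8% of all genes were called higher and 3.39% lower. The median log2 fold change was 0.22 over the list genes and 0.0024 over all genes. Without the library block 1 list gene was higher and none lower (edgeR), with 17 of the 45 at an unadjusted p under 0.05, and the depth of the states differed as given above. In the type I interferon list 7 of 8 genes were higher, with a median of 1.51. *Isg15* was higher by 2.03 ± 0.23 (adjusted p = 3.6e-06) and *Ifi204* by 1.67 ± 0.16 (adjusted p = 2.2e-07). *Irf7* was higher by 1.53 ± 0.37 (adjusted p = 0.0086), but not without niacin replicate 1 (adjusted p = 0.071). *Ifit1*, again the exception, had 1.10 (adjusted p = 0.095). Both comparisons draw on the same microglia-like cells and are not independent of each other. In the interferon gamma axis 4 of 11 were higher, with a median of 0.45, among them *Ifngr2*, *Gbp2* and *Iigp1*, named after their values were seen.

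Of the early NF-kB genes 4 of 7 were higher in activated cells, with a median of 0.95: *Ccl3* by 1.12 ± 0.20 (adjusted p = 0.00071), *Ccl4* by 1.25 ± 0.21 (adjusted p = 0.00030), both in 2 of 3 libraries, and *Tnf* and *Il1b*, named after their values were seen. *Ccl3* and *Ccl4* were therefore higher in activated than in other microglia-like cells, and lower in macrophage-like than in microglia-like cells. Whether the cells with *Cxcl13* also carried them was not examined. Of 10 immediate early genes 4 were lower, with a median of -0.35: *Jun* at -0.67 ± 0.12 (adjusted p = 0.00062), *Egr1* at -0.50 ± 0.13 (adjusted p = 0.018; 0.36 without vehicle), and *Fosb* and *Dusp1*, named after their values were seen. Of the 6 lymphotoxin and noncanonical NF-kB genes 0 passed the edgeR test in this comparison (1 at an unadjusted p under 0.05, and 0 by DESeq2), and of the 2 sheddases 0 passed (0 unadjusted, and 0 by DESeq2).

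The genes whose pattern over classes and libraries was most like that of each member were listed as a description, by Pearson's r of log2(CPM + 10) over 36 class and library profiles that share libraries and depth. For *Cxcl13* these were *Ch25h* (r = 0.88), itself one of the markers that defined the activated state, and *Ninl* (r = 0.77). *Ch25h* gave 220 UMIs, of which 133 lay in a single *Cxcl13*-positive cell of vehicle. Another 34 and 12 lay in single *Cxcl13*-positive cells of niacin replicate 2, so this r rested on few cells. *Cxcl9* was most like *Batf2* (r = 0.85), *Ifi205* and *Cfb*, and *Cxcl10* was most like *Gbp5* (r = 0.92), *Ifit2* and *Gbp2*, genes known as interferon-inducible. *Cxcl16* was most like *Gatm* (r = 0.92) and *Parvb*, with *Axl*, another activation marker, among its 5 closest (r = 0.90). The profile nearest to that of *Cxcl2* was *Clec4d* (r = 0.95), a C-type lectin receptor of myeloid cells, and the nearest to *Xcl1* was *Ctsw* (r = 0.98), a protease of cytotoxic lymphocytes.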

How the data were processed

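Unique molecular identifier counts per gene and cell were deposited by the authors for 3 libraries as made by Cell Ranger 3.1 (10x Genomics 3′ chemistry, STAR alignment to mm10, per the labels and methods), without normalization; their annotation release is not given in the sources used here, and gene spans are from GENCODE M21. Cells with at least 200 genes and at most 20% mitochondrial UMIs were kept, with the copy of a shared barcode that had at least 2 times the UMIs of the others. Doublets were not called; cells passing for a second lineage were left out as an alternative. Each cell took the class of its best-scoring lineage among 16 marker lists, each marker weighted by its rarity, with at least 2 distinct markers, or erythroid-like at 10% globin UMIs. Activated cells carried at least 2, cycling cells at least 3 and nonclassical cells at least 2 markers of the state, and *Arg1*-positive cells at least 2 *Arg1* UMIs. *Clec7a*, a listed activation marker, and *Cxcl11* were not analysed here.

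Levels are summed UMIs per 1000000 UMIs with exact Poisson intervals (scipy 1.17.1, Python 3.11.15). Shares were taken after thinning to 2000 UMIs with exact binomial intervals. The limit given with a count of 0 is 3 counts. Interval widths cover counting error only. Classes with fewer than 20 cells in a library are given as UMIs and cells, and as a level only when summed over libraries. Summed counts per class and library were tested with edgeR 4.0.16 (R 4.3.3, glmQLFit and glmQLFTest, TMM, filterByExpr), library as block. DESeq2 1.42.0, Seurat 5.3.0 clusters (2000 variable genes, 30 components, resolution 0.5) and other settings served as alternatives. The tests were checked on counts simulated with a common dispersion. The macrophage-like against microglia-like fit recovered 27 of 97 2-fold and 89 of 98 4-fold changes. The activated against other microglia-like fit recovered 57 of 100 and 91 of 94. A gene that did not pass can therefore still differ by 2-fold. The 6 members and the gene lists were chosen with earlier results of these data known. Named genes were the members, their receptors, the 4 genes of each other list with the most UMIs, and the 5 genes most like each member among those with at least 100 UMIs, from which the text takes the leading ones; some list genes are counted but not reported here by name. Sequences are from RefSeq.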

Additional observations from a re-analysis of the deposited data

How the results depend on the processing

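Across 22 results and 20 settings, 197 of 227 alternative values stayed close to the value reported (within 1 SD of the libraries, or within 1.5 times for a count). This SD exceeded the mean for *Cxcl13* in activated cells (684 CPM, SD 1001) and *Cxcl9* in macrophage-like cells (409 CPM, SD 707). Even 0 CPM counted as close there, so the total cannot show that these levels were stable. The log2 ratios of macrophage-like over microglia-like cells rested on the vehicle library: without it they were -4.99 for *Cxcl9* (2.83 with it), -0.025 for *Cxcl10* (2.27) and -1.64 for *Cxcl16* (0.69), and with nonclassical cells alone, a setting chosen after seeing the data, that of *Cxcl16* was -1.46. With every copy of a shared barcode left out, the *Cxcl13* ratio of activated over other microglia-like cells was 4.74 (8.11 reported) and its level in cycling cells, summed over the libraries because each held fewer than 20, was 612 CPM from 25 UMIs in 6 cells (159 CPM from 38 UMIs in 17 cells with the deep copies kept). The mean *Cxcl13* level in activated cells, 684 CPM, fell within its wide SD but was 186 CPM without the highest cell, 109 without shared barcodes, 126 without cells passing for a second lineage, 409 at 3 or more activation markers and 0 by Seurat clusters, where the cluster holding most of these cells had no class and the ratio could not be given.

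Leaving out 1 library at a time gave 110 to 1026 CPM for *Cxcl13* in activated cells and 70.4 to 320.2 in cycling cells summed over libraries, a *Cxcl13* ratio of 7.89 to 8.16, 0.744 to 614 CPM for *Cxcl9* in macrophage-like cells and ratios of -4.99 to 3.28 (*Cxcl9*), -0.025 to 2.50 (*Cxcl10*) and -1.64 to 1.07 (*Cxcl16*). *Cxcl2* in neutrophil-like cells ranged from 639.9 to 1518 CPM, and *Xcl1* from 124 to 198 in T cell-like cells. Summed over libraries, *Xcl1* in NK-like cells ranged from 229 to 1072 CPM (462 with all), the highest without vehicle, from only 21 cells.

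In the fit of macrophage-like against microglia-like cells, list genes numbered 12 to 19 higher and 6 to 14 lower and all genes called 2219 to 5245 with 1 library left out (21, 13 and 4242 reported), the lowest without niacin replicate 2. Without the replicate block 12 list genes were higher. In the fit of activated against other microglia-like cells, the counts with 1 library left out were 11 to 13 higher, 2 to 6 lower and 541 to 752 called (15, 4 and 904 reported). Without the replicate block they were 1, 0 and 118. Higher list genes numbered 9 without shared barcodes, 1 by clusters and 9 at 3 or more activation markers, and lower ones 7 without a filter, 1 by clusters and 9 at 3 or more markers. Genes called in all numbered 456 by DESeq2, 376 without shared barcodes and 166 by clusters. The cause of these shifts was not tested. Depth limits *Xcr1*, *Cxcr5* and every class under 20 cells.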
